A study of Mus musculus with 3 samples.

Results

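The interferon signalling, GTPase and response genes were followed in bulk RNA sequencing of sorted mouse mammary cells. They are 54 genes of the 52661 in each gene table, chosen by name as interferon receptors with their kinase, STAT and IRF transcription factors, feedback genes, interferon-induced GTPases and type I response genes, and all 54 were found in the tables. There was 1 library for each of 3 populations, called its sample here, so no value has a replicate error. All populations were sorted as mammary epithelial cells positive for PROCR and EpCAM with high CD49f, and they differ in the surface proteins CD36 and podoplanin (PDPN). The CD36+ sample is CD36 positive and PDPN negative, the double-negative sample is negative for both, and the titles call these populations Cdh5 positive. The PDPN+ sample is CD36 negative, PDPN positive and Cdh5 negative. No treatment is named, and the labels used here give neither the strain and age of the mice nor the number of mice or cells behind a sample.

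Interferons are secreted proteins that signal infection and inflammation. Type I interferons bind the receptor chains IFNAR1 and IFNAR2 and act through transcription factors that include STAT2 and IRF9, which bind the interferon-stimulated response element (ISRE). Interferon gamma, the type II interferon, binds IFNGR1 and IFNGR2, signals through the kinases JAK1 and JAK2 to genes that carry the gamma-activated sequence (GAS), and induces IRF1. Among the strongest targets in mice are the guanylate-binding proteins (GBP) and the immunity-related GTPases (IRG), which attack membranes around intracellular pathogens. Endothelial cells are well known to respond to both interferon types.

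Total estimated counts lay between 51138993 and 67675778 per sample. Levels are CPM, counts scaled to sequencing depth with TMM normalization, which compare a gene between samples, and levels of different genes are compared only in TPM, which corrects for transcript length. A gene was called higher or lower in a comparison where it differed by 4-fold or more with at least 10 CPM in the higher sample. Ratios carry exact 95% counting intervals, which cover counting error only, since reads without molecular identifiers are not independent molecules. A gene with 0 counts was set at a floor of 3 counts per sample, or 0.0507 CPM in the CD36+ sample, 0.0594 CPM in the double-negative sample and 0.0406 CPM in the PDPN+ sample. The epithelial label was checked against markers. The summed level of 10 endothelial markers was 6467 CPM in the CD36+ sample, 4449 CPM in the double-negative sample and 140 CPM in the PDPN+ sample. All 10 reached 1 CPM in each Cdh5-positive sample and 6 in the PDPN+ sample. There Pecam1 alone stood at 68.4 CPM, and Tek, Esam and Egfl7 had 1 count each. That of 10 basal epithelial markers was 111 CPM in CD36+ cells, 312 CPM in double-negative cells and 6233 CPM in PDPN+ cells. The 9 luminal epithelial markers summed to 414 CPM in CD36+ cells, 332 CPM in double-negative cells and 645 CPM in PDPN+ cells. Only Krt8 and Krt18 were highest in PDPN+ cells. Krt8 stood at 122 CPM in CD36+ cells, 84.4 CPM in double-negative cells and 326 CPM in PDPN+ cells, and Krt18 at 131, 145 and 284 CPM in that order. Csn3, Esr1, Prlr and, by a small gap, Elf5 were highest in the CD36+ sample, and Krt19, Ly6d and Pgr in the double-negative sample. Of the genes of the gates, Cd36 stood at 4766 CPM in CD36+ cells, 1523 CPM in double-negative cells and 45.1 CPM in PDPN+ cells, so its RNA was also present in the double-negative sample, and Pdpn stood at 12.5 CPM in CD36+ cells, 32.3 CPM in double-negative cells and 830.2 CPM in PDPN+ cells. Epcam stood at 50.7 CPM in CD36+ cells, 104 CPM in double-negative cells and 560.1 CPM in PDPN+ cells. The 6 fibroblast markers summed to 116 CPM in CD36+ cells, 61.1 CPM in double-negative cells and 611 CPM in PDPN+ cells. The 5 pericyte markers summed to 258, 164 and 65.3 CPM in that order, mostly Rgs5 at 241, 164 and 51.9 CPM. The Cdh5-positive samples thus held more endothelial than basal or luminal marker RNA by summed CPM, which goes against their epithelial label, though luminal markers were present. Such sums span different genes and are not corrected for transcript length. Every member difference from the PDPN+ sample coincides with this contrast of endothelial and basal markers, and its part in the results was not tested. In bulk RNA, fewer cells of a type and less RNA per cell cannot be told apart.

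Of the 54 members, 41 had their lowest CPM in the PDPN+ sample. The highest CPM lay in the CD36+ sample for 25 members, in the double-negative sample for 24 and in the PDPN+ sample for 5. In the CD36+ sample 44 members reached 10 CPM and 21 reached 100 CPM. The numbers were 44 and 19 in the double-negative sample, and 14 and 0 in the PDPN+ sample. Together the members made up 0.617% of all transcripts by TPM in the CD36+ sample, 0.816% in the double-negative sample and 0.0477% in the PDPN+ sample. Of these shares, the GTPases held 0.422% in the CD36+ sample, 0.510% in the double-negative sample and 0.0105% in the PDPN+ sample. The highest TPM of a member in the PDPN+ sample was 44.6, that of Ifi35.

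The CD36+ over PDPN+ comparison had 45 members with at least 10 CPM in either sample. Of these 37 were called higher, against 15.1% of all 9387 genes tested, 1 was called lower, against 17.6%, and 7 were within 4-fold. Within 2-fold were 5 members, against 46.6% of genes. The median log2 ratio was 4.75 for these members and -0.02 for all genes tested. Under total counts, which shifted all log2 ratios of this pair by -0.40, the shares of all genes were 11.8% higher and 22.4% lower, and the member counts stayed at 37 and 1. At most 3 counts in the PDPN+ sample with at least 10 CPM in the CD36+ sample were found for 7 members, Tgtp2, Gbp2b, Gbp3, Rtp4, Ifit3, Ifih1 and Oas1a, against 2.7% of all genes, and the reverse for 0 members, against 4.82%. Members that passed 10 CPM through a high CD36+ level alone were largely bound to differ, so these counts describe the members and are no test. The same holds for all later counts against the PDPN+ sample, by role or for further pathway genes.

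The double-negative over PDPN+ comparison shares the PDPN+ sample with the first. It had 46 members with at least 10 CPM, of which 36 were called higher, against 14.9% of 9515 genes, and 1 was called lower, against 19.3%. The gene called lower was Ifnar1, and 4 members were within 2-fold, against 44.4%. At most 3 counts in the PDPN+ sample with at least 10 CPM in the double-negative sample were found for 6 members, against 3.06% of genes, and the reverse for 0 members, against 5.06%. The median log2 ratio was 4.52 for these members and -0.11 for all genes tested. Type I response genes were called higher in 18 of 20 cases in the CD36+ sample (median 5.33) and in 17 of 19 cases in the double-negative sample (median 4.91), and neither comparison had a type I response gene called lower at this minimum.

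**Figure D1:**
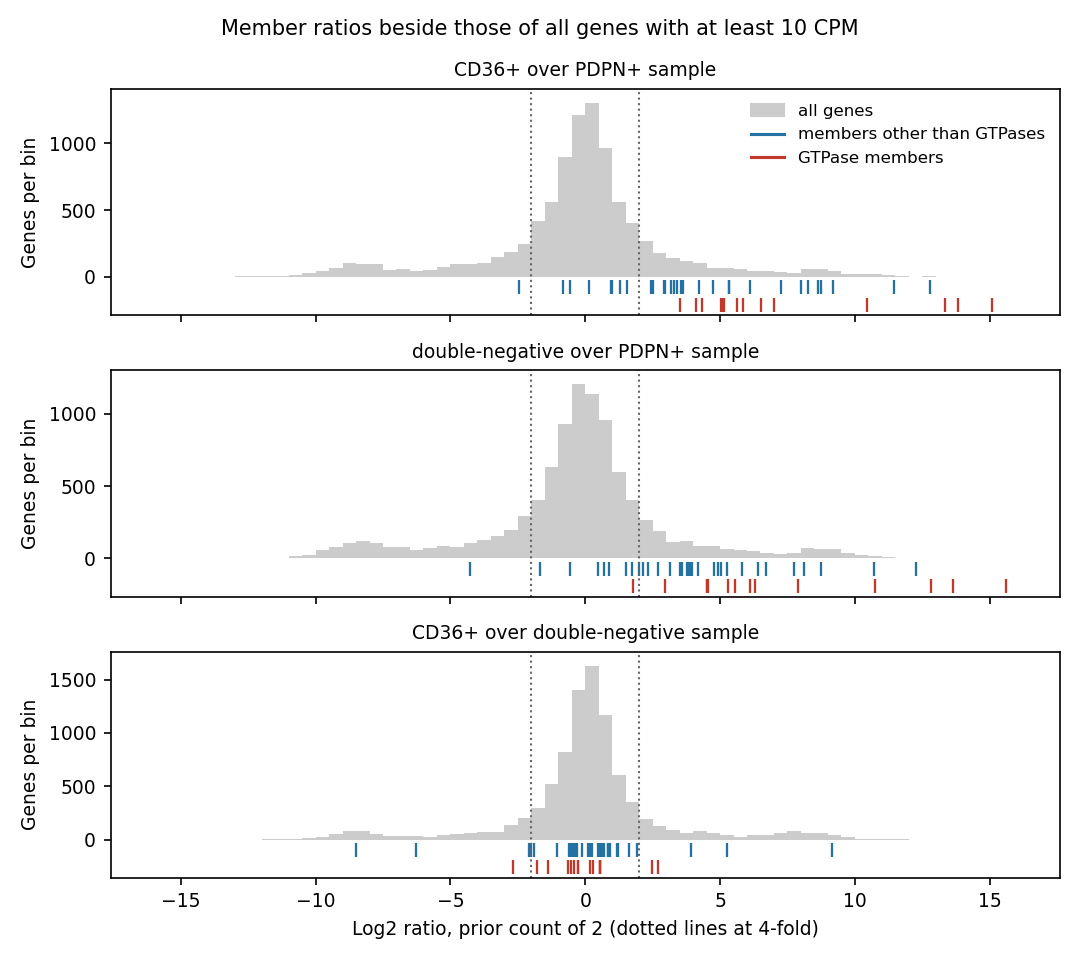
Log2 ratios in the 3 comparisons, with all genes of at least 10 CPM as grey bars (genes per bin of 0.5) and members as ticks below, GTPases in red and other members in blue. Ticks lie to the right of the bulk of genes in both comparisons with the PDPN+ sample, and around 0 in the CD36+ over double-negative comparison.

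RNA for the interferons themselves was close to absent. Of 10 ligand genes examined, none reached 1 CPM in any sample. Ifng had 1 count in the CD36+ sample and 0 counts in the double-negative and PDPN+ samples, and Ifnb1 had 0 counts in all 3. Ifna2 had 0 counts in the CD36+ and double-negative samples and 7 counts in the PDPN+ sample, and the other ligand genes had at most 2 counts in a sample.

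The 4 receptor chain genes did not move together. Ifnar2, the chain that binds type I interferons tightly, stood at 71.6 CPM in the CD36+ sample, 88.3 CPM in the double-negative sample and 2.64 CPM in the PDPN+ sample. Its ratio to the PDPN+ sample was 27.1 in the CD36+ sample (95% interval 23.5 to 31.5) and 33.5 in the double-negative sample (29.0 to 38.9). By TPM its ratios were smaller, 10.4 for the CD36+ and 17.0 for the double-negative sample. Its partner Ifnar1 stood at 58.2 CPM in CD36+ cells, 1.49 CPM in double-negative cells and 29.2 CPM in PDPN+ cells. The double-negative sample was therefore the low one for Ifnar1, 19.7-fold below the PDPN+ sample, and the CD36+ sample held 39.2 times its level (31.2 to 49.9). Both genes lie near each other on chromosome 16, Ifnar2 at 91372783 to 91405589 and Ifnar1 at 91485238 to 91507441, on the plus strand of mm10.

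Among the interferon gamma receptor chains, Ifngr1 stood at 34.8 CPM in the CD36+ sample, 147 CPM in the double-negative sample and 51.5 CPM in the PDPN+ sample. Ifngr2, the chain that recruits JAK2, stood at 3.95 CPM in CD36+ cells, 15.0 CPM in double-negative cells and 21.99 CPM in PDPN+ cells. The CD36+ sample was the lowest of the 3 for both chains. Ifngr2 was 5.56-fold lower in the CD36+ sample than in the PDPN+ sample, the only member called lower in that comparison, and Ifngr1 was 4.24-fold lower in the CD36+ sample than in the double-negative sample.

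The kinase gene Jak2 stood at 1086 CPM in the CD36+ sample, 706 CPM in the double-negative sample and 58.3 CPM in the PDPN+ sample. Its ratios to the PDPN+ sample were 18.6 (18.1 to 19.2) for the CD36+ sample and 12.1 (11.7 to 12.5) for the double-negative sample. In the unit of length-corrected transcripts, Jak2 stood at 250.8 TPM in CD36+ cells, 179 TPM in double-negative cells and 18.9 TPM in PDPN+ cells. Of the 4 receptor and kinase genes examined beside the members, Il10rb, a chain of the interferon lambda receptor, was higher in both Cdh5-positive samples, at 24.0 CPM in the CD36+ sample, 14.4 CPM in the double-negative sample and 2.24 CPM in the PDPN+ sample. Jak1, the kinase shared by all interferon receptors, was within 4-fold at 1290 CPM in the CD36+ sample, 1067 CPM in the double-negative sample and 508 CPM in the PDPN+ sample. Ifnlr1 and Tyk2 stayed below 10 CPM in every sample.

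Among the transcription factors, Stat2, a factor of type I signalling, stood at 54.5 CPM in the CD36+ sample, 28.6 CPM in the double-negative sample and 7.19 CPM in the PDPN+ sample. It was 7.58-fold higher in the CD36+ sample than in the PDPN+ sample (6.91 to 8.32), and the double-negative sample held 3.98 times the PDPN+ level (3.60 to 4.41), just short of the threshold. Irf9, which binds the ISRE together with STAT2, stood at 58.9 CPM in CD36+ cells, 79.6 CPM in double-negative cells and 23.8 CPM in PDPN+ cells, within 4-fold throughout. Irf1, the factor downstream of interferon gamma, stood at 43.9 CPM in the CD36+ sample, 31.7 CPM in the double-negative sample and 22.9 CPM in the PDPN+ sample. Its gap between the double-negative and PDPN+ samples turned direction by TPM, which was 19.9 in the first and 21.98 in the second.

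Irf8, known mainly from myeloid and B cells, stood at 35.1 CPM in the CD36+ sample, 46.0 CPM in the double-negative sample and 3.29 CPM in the PDPN+ sample. It was 10.7-fold higher (9.36 to 12.3) in the CD36+ and 14.0-fold higher (12.3 to 16.05) in the double-negative sample. Ptprc, the pan-leukocyte marker, stood at 1.098 CPM in CD36+ cells, 0.970 CPM in double-negative cells and 0.798 CPM in PDPN+ cells. The summed level of 10 leukocyte markers was 44.3 CPM in the CD36+ sample, 62.7 CPM in the double-negative sample and 3.62 CPM in the PDPN+ sample. Fcer1g stood at 21.4 CPM in CD36+ cells, 57.4 CPM in double-negative cells and 0 CPM in PDPN+ cells. Lyz2, a myeloid gene, had 546 counts in the CD36+ sample and 0 counts in the double-negative and PDPN+ samples. Cd79a, a B cell gene, had 292 counts in the CD36+ sample, 8 counts in the double-negative sample and 77 counts in the PDPN+ sample, and Coro1a had 351 counts in the CD36+ sample, 205 counts in the double-negative sample and 0 counts in the PDPN+ sample. The myeloid gene Tyrobp had 0 counts in all 3 samples, and Csf1r had 5 counts in the CD36+ sample, 1 count in the double-negative sample and 0 counts in the PDPN+ sample. Of the 10 markers, 6 reached 1 CPM in the CD36+ sample, 2 in the double-negative sample and 2 in the PDPN+ sample. The part of leukocyte RNA in the level of Irf8 was not tested. Irf7, the amplifier of type I interferon production, was low throughout, with 181 counts in the CD36+ sample, 1 count in the double-negative sample and 324 counts in the PDPN+ sample. It did not reach 10 CPM anywhere.

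Of 9 STAT and IRF pathway genes examined beside the members, 6 reached 10 CPM in each comparison with the PDPN+ sample. Called higher was 1 in each, or 16.7%, near the 15.1% and 14.9% of all genes. Called lower were 1 in the CD36+ sample and 2 in the double-negative sample, with lowest log2 ratios of -4.98 and -4.70. The medians were 0.71 for the CD36+ and -0.44 for the double-negative sample. Nmi was the gene called higher, with log2 ratios of 2.38 for the CD36+ and 2.95 for the double-negative sample. Irf3, which switches on interferon genes after infection, stood at 11.8 TPM in the CD36+ sample, 8.79 TPM in the double-negative sample and 23.5 TPM in the PDPN+ sample, and by CPM was called lower in the double-negative sample than in either of the others.

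Feedback genes were higher in the Cdh5-positive samples in part. Usp18, which blocks IFNAR2 and removes ISG15 from proteins, stood at 25.5 CPM in the CD36+ sample, 21.4 CPM in the double-negative sample and 3.23 CPM in the PDPN+ sample, which was 7.89-fold higher (6.88 to 9.09) in the CD36+ and 6.63-fold higher (5.76 to 7.66) in the double-negative sample. Socs3, an inhibitor of JAK signalling that acts mainly on the interleukin-6 family, stood at 64.7 CPM in CD36+ cells, 96.5 CPM in double-negative cells and 22.1 CPM in PDPN+ cells. It passed the threshold in the double-negative sample, at 4.38-fold, and stood at 2.93-fold in the CD36+ sample. The double-negative call ended under total counts, at a log2 ratio of 1.90, and by TPM, at 1.76. Socs1, the main inhibitor of interferon gamma signalling, stood at 2.70 CPM in the CD36+ sample, 10.9 CPM in the double-negative sample and 6.64 CPM in the PDPN+ sample. Cd274, which encodes PD-L1, stood at 1.60 TPM in CD36+ cells, 3.60 TPM in double-negative cells and 0.296 TPM in PDPN+ cells, and by CPM was 15.5-fold higher in the double-negative sample than in the PDPN+ sample (11.5 to 21.2). That call rests on 10.2 CPM in the double-negative sample, just over the minimum, and 49 counts in the PDPN+ sample. An antisense gene, AC119228.1, overlaps 14.1% of the exonic bases of Cd274, and without a stated strand setting reads there cannot be told apart.

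**Figure D2:**
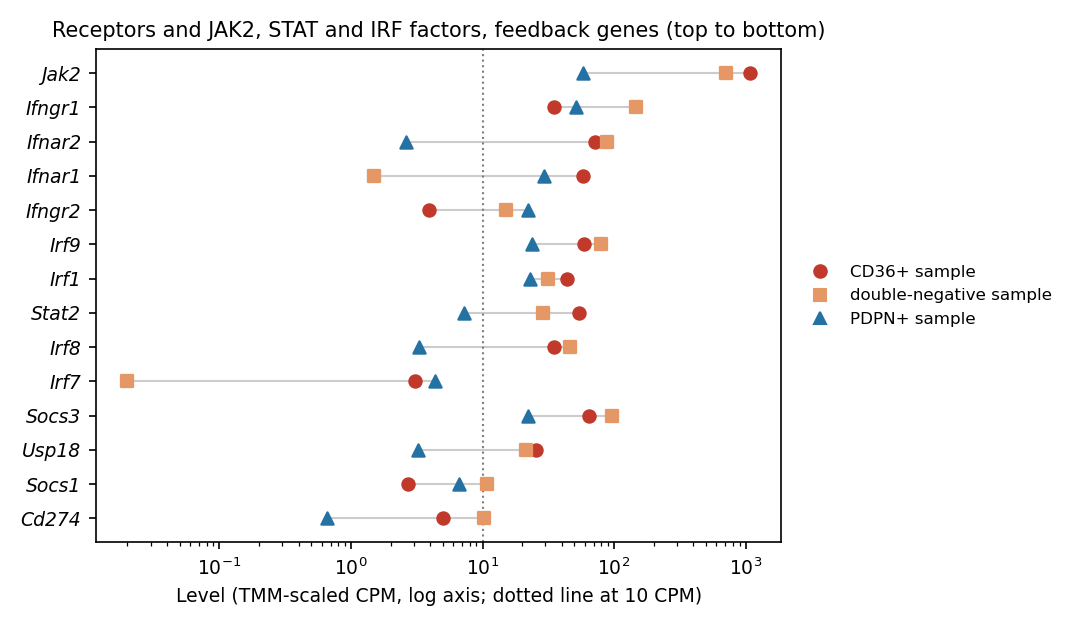
Levels of 14 signalling members, with genes down the page (receptors and Jak2, then STAT and IRF factors, then feedback genes) and TMM-scaled CPM on a log axis, 1 point per sample. The receptor chains change order from gene to gene, Ifnar1 being lowest in the double-negative sample at 1.49 CPM and Ifngr2 lowest in the CD36+ sample at 3.95 CPM.

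The GTPase genes held most of the members' summed TPM in both Cdh5-positive samples, 4216 of 6167 in the CD36+ sample and 5099 of 8158 in the double-negative sample, against 105 of 477 in the PDPN+ sample. Iigp1, the IRG protein known from defence against Toxoplasma in mice, stood at 1647 TPM in the CD36+ sample, 1459 TPM in the double-negative sample and 40.2 TPM in the PDPN+ sample. These values ranked it 55 in the CD36+ sample, 57 in the double-negative sample and 3210 in the PDPN+ sample among 21773 nuclear protein-coding genes. In TMM-scaled CPM it stood at 4118 CPM in CD36+ cells, 3335 CPM in double-negative cells and 71.7 CPM in PDPN+ cells, a ratio to the PDPN+ sample of 57.5 (55.9 to 59.1) for the CD36+ and 46.5 (45.3 to 47.8) for the double-negative sample. Of 15 GTPase genes, 12 reached 100 CPM in each Cdh5-positive sample and 0 in the PDPN+ sample.

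The promoters of the 4 GTPase genes with the highest TPM in the CD36+ sample among members with a motif are shown, since all 4 were called higher in both Cdh5-positive samples than in the PDPN+ sample. Between the Cdh5-positive samples they split, with CD36+ over double-negative ratios of 0.692 for Tgtp2, 0.382 for Tgtp1, 1.47 for Gbp2 and 1.13 for Gbp2b. Sequences are RefSeq windows of GRCm38.p6, from 250 bases before to 50 after the start, written 5′ to 3′ on the gene's strand. Capitals mark ISRE matches (TTTC and TTTC, with 2 bases of any kind between) and GAS matches (TTCNNNGAA) on either strand.
Tgtp2 (chr11:49064163-49064462, minus strand): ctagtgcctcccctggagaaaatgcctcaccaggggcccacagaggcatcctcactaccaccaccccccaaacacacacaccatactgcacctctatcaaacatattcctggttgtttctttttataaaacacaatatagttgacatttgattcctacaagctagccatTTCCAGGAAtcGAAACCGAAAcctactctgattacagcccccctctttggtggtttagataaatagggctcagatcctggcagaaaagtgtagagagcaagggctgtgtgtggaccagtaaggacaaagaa
Tgtp1 (chr11:48992197-48992496, minus strand): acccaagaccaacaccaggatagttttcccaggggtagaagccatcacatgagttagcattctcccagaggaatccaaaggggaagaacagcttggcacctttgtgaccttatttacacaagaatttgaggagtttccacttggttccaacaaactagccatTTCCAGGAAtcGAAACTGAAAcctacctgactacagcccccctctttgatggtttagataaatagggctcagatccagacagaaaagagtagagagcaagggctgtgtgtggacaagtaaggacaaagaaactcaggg
Gbp2 (chr3:142620413-142620712, plus strand): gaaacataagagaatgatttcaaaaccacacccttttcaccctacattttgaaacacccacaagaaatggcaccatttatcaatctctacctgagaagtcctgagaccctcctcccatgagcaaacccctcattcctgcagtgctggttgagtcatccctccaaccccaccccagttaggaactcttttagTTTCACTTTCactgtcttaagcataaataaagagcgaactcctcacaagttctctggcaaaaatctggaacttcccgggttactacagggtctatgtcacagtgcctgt
Gbp2b (chr3:142594597-142594896, plus strand): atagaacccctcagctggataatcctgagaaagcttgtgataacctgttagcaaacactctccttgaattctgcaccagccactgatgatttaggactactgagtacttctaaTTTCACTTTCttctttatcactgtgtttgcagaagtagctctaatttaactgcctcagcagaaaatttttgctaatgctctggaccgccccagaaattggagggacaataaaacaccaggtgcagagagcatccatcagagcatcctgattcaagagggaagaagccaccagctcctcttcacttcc

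In Tgtp2 the GAS match began 81 bases before the start and the ISRE match 70 bases before, and in Tgtp1 the distances were 88 and 77 bases. The ISRE matches of Gbp2 and Gbp2b began 59 and 137 bases before their starts, with no GAS match in these windows. RefSeq windows were found for 42 of the 54 members, 50 windows in all. No window was found for Usp18, Gbp4, Gbp6, Gbp8, Gbp9, Iigp1, Rtp4, Dhx58, Mx1, Mx2, Parp14 and Zbp1. An ISRE match lay in at least 1 window of 10 of 10 GTPase genes, 9 of 19 type I response genes, 1 of 5 STAT and IRF factors, 1 of 3 feedback genes and 0 of 5 receptor and kinase genes. For GAS the numbers were 6, 6, 2, 1 and 2 in that order. Counted by gene in the same way, 3.99% of all 27025 genes with a window had an ISRE and 9.55% a GAS match. Of the 50 windows of members, 22 held an ISRE match, 17 a GAS match and 8 both. Of all 32851 windows of this length, 3.44% held an ISRE and 8.30% a GAS match. Among members, both motifs overlapped in the window of Bst2 alone. A match is a string of letters and no evidence of binding in these cells, and the members were partly known as interferon targets before they were listed.

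Tgtp1 and Tgtp2 encode nearly the same IRG protein, the T cell-specific GTPase, and lie together on chromosome 11 (48985327 to 49064206). Tgtp2 stood at 1127 CPM in the CD36+ sample, 1629 CPM in the double-negative sample and 0 counts in the PDPN+ sample. Tgtp1 stood at 577 CPM in CD36+ cells, 1512 CPM in double-negative cells and 6.33 CPM in PDPN+ cells. Of the 31-base words of their transcripts, 90.5% of those of Tgtp2 and 84.4% of those of Tgtp1 also occur in other genes, so the split of reads between them is uncertain. Their sum was 1704 CPM in the CD36+ sample, 3141 CPM in the double-negative sample and 6.33 CPM in the PDPN+ sample. It was 269-fold higher in the CD36+ sample than in the PDPN+ sample (246 to 295), and the double-negative sample held 496 times the PDPN+ level (453 to 545). Taken alone, Tgtp2 was at least 27782-fold higher in the CD36+ sample and at least 40166-fold higher in the double-negative sample.

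The other IRG genes are Irgm1 and Irgm2, regulators that keep the effector GTPases inactive on the cell's own membranes, and Igtp, also called Irgm3. Irgm1 stood at 242 CPM in the CD36+ sample, 165 CPM in the double-negative sample and 21.3 CPM in the PDPN+ sample, ratios to the PDPN+ sample of 11.4 for the CD36+ and 7.77 for the double-negative sample. Igtp stood at 325 CPM in CD36+ cells, 395 CPM in double-negative cells and 9.94 CPM in PDPN+ cells, ratios to the PDPN+ sample of 32.7 for the CD36+ and 39.8 for the double-negative sample. Irgm2 stood at 140 CPM in the CD36+ sample, 25.2 CPM in the double-negative sample and 1.07 CPM in the PDPN+ sample. It was the regulator that differed most between the Cdh5-positive samples, 5.57-fold higher in the CD36+ sample (5.25 to 5.92), while its overlapping neighbour Igtp was 1.22-fold lower there. Both share 162 exonic bases on the same strand.

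The GBP genes lie in blocks on chromosome 3 (142493978 to 142638008) and chromosome 5 (105014150 to 105293698). On chromosome 3, Gbp2b stood at 670.4 CPM in the CD36+ sample, 592 CPM in the double-negative sample and 1 count in the PDPN+ sample. Gbp3 stood at 343 CPM in the CD36+ sample, at least 8465-fold higher, and 235 CPM in the double-negative sample, at least 5805-fold higher, than its 0 counts in the PDPN+ sample. Gbp2, a GTPase that oligomerises on pathogen vacuoles, stood at 606 CPM in CD36+ cells, 412 CPM in double-negative cells and 17.8 CPM in PDPN+ cells. Thus Gbp2 was 34.1-fold (32.3 to 36.1) higher in the CD36+ and 23.2-fold (21.9 to 24.5) higher in the double-negative sample, with RNA present in all 3 samples, whereas its neighbours Gbp2b and Gbp3 had at most 1 count in the PDPN+ sample.

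Gbp7, also in this block, stood at 417 CPM in the CD36+ sample, 559 CPM in the double-negative sample and 23.9 CPM in the PDPN+ sample. Gbp5, which promotes inflammasome assembly, stood at 21.9 CPM in CD36+ cells, 3.35 CPM in double-negative cells and 0.595 CPM in PDPN+ cells. The summed level of the 5 genes of chromosome 3 was 2059 CPM in the CD36+ sample, 1802 CPM in the double-negative sample and 42.3 CPM in the PDPN+ sample.

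On chromosome 5, Gbp4 stood at 998 CPM in the CD36+ sample, 1563 CPM in the double-negative sample and 19.9 CPM in the PDPN+ sample. Gbp9 stood at 443 CPM in CD36+ cells, 538 CPM in double-negative cells and 0.284 CPM in PDPN+ cells, and its ratios to the PDPN+ sample, 1562 (1021 to 2523) for the CD36+ and 1896 (1240 to 3063) for the double-negative sample, rest on 21 counts in the PDPN+ sample. Gbp6 stood at 92.1 CPM in CD36+ cells, 320 CPM in double-negative cells and 4.60 CPM in PDPN+ cells, with 74.3% of its 31-base words found in other genes, above all in the overlapping gene Gm43302, which itself stood at 207 CPM in CD36+ cells, 525 CPM in double-negative cells and 1.24 CPM in PDPN+ cells. Gbp8 was the GTPase gene that departed from the rest, at 3.90 CPM in the CD36+ sample, 24.9 CPM in the double-negative sample and 7.21 CPM in the PDPN+ sample. The 4 genes of chromosome 5 summed to 1538 CPM in the CD36+ sample, 2446 CPM in the double-negative sample and 32.0 CPM in the PDPN+ sample. The chromosome 3 block was thus 1.14 times as high in the CD36+ as in the double-negative sample and the chromosome 5 block 0.629 times as high. On chromosome 11, Irgm1, Tgtp1 and Tgtp2 together were 0.588 times and Irgm2 with Igtp 1.11 times as high in the CD36+ as in the double-negative sample. Iigp1 lies apart, on chromosome 18 at 60376027 to 60392634.

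Of 15 GTPase members, 14 reached 10 CPM in the CD36+ or the PDPN+ sample, and all 14 were called higher in the CD36+ sample, against 15.1% of all genes tested, their median log2 ratio being 5.74 and that of all genes -0.02. In the double-negative sample 13 of 14 were called higher, against 14.9% of all genes, with a median of 5.82 against -0.11, and Gbp8 stood at 3.45-fold. Of the 15 GTPase members, 5 reached 10 CPM in the PDPN+ sample. Most thus passed the minimum through a high Cdh5-positive level and were largely bound to differ. Gbp8, at 3.90 CPM in CD36+ and 7.21 CPM in PDPN+ cells, fell below the minimum of that pair. These counts describe the members and are no test. Among 6 further GTPase genes examined beside the members, 5 reached 10 CPM and all 5 were called higher in both Cdh5-positive samples. Ifi47, an IRG gene of chromosome 11, stood at 422 CPM in the CD36+ sample, 319 CPM in the double-negative sample and 21.8 CPM in the PDPN+ sample, and Gbp10 stood at 26.7 CPM in CD36+ cells, 106 CPM in double-negative cells and 1.26 CPM in PDPN+ cells.

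**Figure D3:**
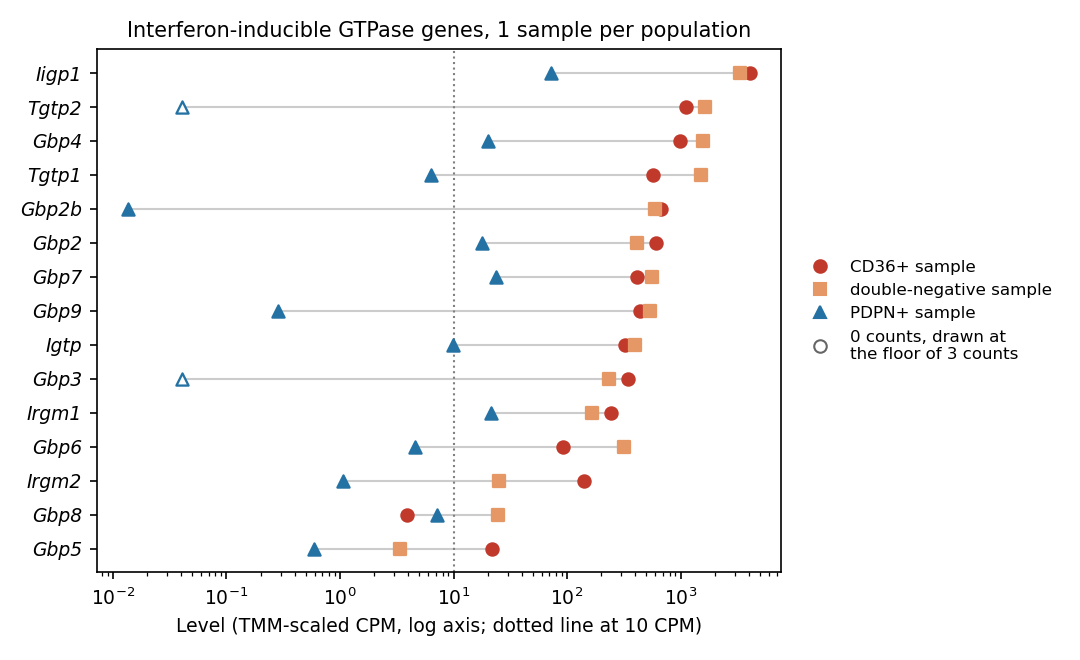
Levels of the 15 GTPase members, with genes down the page and TMM-scaled CPM on a log axis, 1 point per sample, and open points for 0 counts drawn at the floor of 3 counts. The PDPN+ sample lies below both Cdh5-positive samples for 14 genes, the exception being Gbp8, whose lowest level is the CD36+ value of 3.90 CPM.

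Among the type I response genes, Rtp4, a chaperone-like transmembrane protein induced by type I interferon, stood at 234 CPM in the CD36+ sample, 162 CPM in the double-negative sample and 0 counts in the PDPN+ sample, at least 5761-fold higher in the CD36+ and 3988-fold higher in the double-negative sample. Bst2, or tetherin, which holds budding viruses on the cell surface, stood at 109 CPM in CD36+ cells, 73.9 CPM in double-negative cells and 2.66 CPM in PDPN+ cells. Rsad2, the antiviral enzyme viperin, stood at 127 CPM in CD36+ cells, 33.4 CPM in double-negative cells and 0.284 CPM in PDPN+ cells. All 3 genes had the CD36+ sample highest and the PDPN+ sample lowest.

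The ubiquitin-like modifier gene Isg15 stood at 55.9 CPM in the CD36+ sample, 85.2 CPM in the double-negative sample and 4.64 CPM in the PDPN+ sample, ratios to the PDPN+ sample of 12.0 (10.8 to 13.5) for the CD36+ and 18.4 (16.46 to 20.6) for the double-negative sample. Herc6, its main ligase in mice, stood at 178 CPM in CD36+ cells, 76.8 CPM in double-negative cells and 2.52 CPM in PDPN+ cells. Isg15 and Herc6 thus peaked in different samples of the Cdh5-positive pair. Ubd, which encodes another ubiquitin-like modifier, FAT10, that is induced by interferon gamma and TNF, stood at 10.8 CPM in the CD36+ sample, 828 CPM in the double-negative sample and 9.74 CPM in the PDPN+ sample. It was 76.8-fold lower in the CD36+ sample than in the double-negative sample, and 85.0-fold higher in the double-negative sample than in the PDPN+ sample (79.0 to 91.6). With 1330 TPM in the double-negative sample, Ubd ranked 66 there, against 4568 in the CD36+ sample, and its small gap between the CD36+ and PDPN+ samples turned direction under total counts and by TPM.

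The sensors of viral RNA were higher in both Cdh5-positive samples for 2 of 3 genes. Ifih1, which encodes the long double-stranded RNA sensor MDA5, stood at 90.6 CPM in the CD36+ sample, 55.3 CPM in the double-negative sample and 0 counts in the PDPN+ sample. Ddx58, which encodes RIG-I, stood at 83.3 CPM in CD36+ cells, 110 CPM in double-negative cells and 7.004 CPM in PDPN+ cells, ratios to the PDPN+ sample of 11.9 for the CD36+ and 15.6 for the double-negative sample. By TPM the CD36+ call of Ddx58 ended, at a log2 ratio of 1.49. Dhx58, the related LGP2, reached 8.04 CPM in the CD36+ sample and had 3 counts in the double-negative and 11 counts in the PDPN+ sample. Zbp1, a sensor of left-handed nucleic acid that triggers necroptosis, was highest in the PDPN+ sample, with 1 count in the CD36+ sample, 1 count in the double-negative sample and 5.52 CPM in the PDPN+ sample.

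The IFIT proteins bind foreign RNA ends and block its translation. Ifit1 stood at 86.3 CPM in the CD36+ sample, 47.7 CPM in the double-negative sample and 9.52 CPM in the PDPN+ sample. Ifit3 stood at 14.3 CPM in the CD36+ sample and 19.7 CPM in the double-negative sample against 1 count in the PDPN+ sample, and 61.8% of its 31-base words also occur in its copy Ifit3b, which had 0 counts in all 3 samples. Ifit2 stood at 40.7 CPM in the CD36+ sample, 2 counts in the double-negative sample and 7.53 CPM in the PDPN+ sample. By TPM the call of Ifit1 in the double-negative sample and that of Ifit2 in the CD36+ sample against the PDPN+ sample ended, at log2 ratios of 1.95 and 1.91. Although neighbours on chromosome 19, these genes did not share 1 pattern, since Ifit2 was nearly absent where Ifit3 was highest.

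Mx and OAS genes followed no common pattern. Mx2, annotated as a polymorphic pseudogene in the mouse reference, had 2 counts in the CD36+ sample, 23.8 CPM in the double-negative sample and 1.70 CPM in the PDPN+ sample. Mx1, whose human counterpart restricts influenza virus, had 3 counts in the CD36+ sample, 5.15 CPM in the double-negative sample and 0.636 CPM in the PDPN+ sample, and by TPM the double-negative sample had 2.16 and the PDPN+ sample 2.54. Oasl2, an OAS-like protein, stood at 50.5 CPM in CD36+ cells, 70.5 CPM in double-negative cells and 0.297 CPM in PDPN+ cells. Oasl1 ran the other way, with 0 counts in the CD36+ sample, 1.29 CPM in the double-negative sample and 6.73 CPM in the PDPN+ sample. Oas1a, a synthetase that activates RNase L, stood at 14.1 CPM in the CD36+ sample and 6.16 CPM in the double-negative sample against 0 counts in the PDPN+ sample. Since 68.7% of its 31-base words occur in Oas1g, which had 0 counts in the CD36+ and double-negative samples and 63 counts in the PDPN+ sample, the absence of Oas1a from the PDPN+ sample is uncertain.

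Further members followed the main direction. Ifi44 stood at 135 CPM in the CD36+ sample, 145.5 CPM in the double-negative sample and 0.487 CPM in the PDPN+ sample. Parp14, an ADP-ribosyltransferase of the interferon response, stood at 130 CPM in CD36+ cells, 180 CPM in double-negative cells and 3.19 CPM in PDPN+ cells. Samhd1, which depletes nucleotides needed by retroviruses, stood at 83.2 CPM in CD36+ cells, 77.1 CPM in double-negative cells and 6.79 CPM in PDPN+ cells, and Xaf1, a promoter of cell death, at 84.1 CPM in CD36+ cells, 74.9 CPM in double-negative cells and 8.52 CPM in PDPN+ cells. Between the Cdh5-positive samples these 4 genes were at most 1.39-fold apart, and the direction of Xaf1 and Samhd1 turned under total counts.

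Trim30a, a negative regulator of Toll-like receptor signalling in mice, stood at 167 CPM in the CD36+ sample, 10.9 CPM in the double-negative sample and 0.257 CPM in the PDPN+ sample. Its 3 levels were thus far apart. Ifi35 stood at 190 CPM in the CD36+ sample, 61.0 CPM in the double-negative sample and 33.3 CPM in the PDPN+ sample, and an antisense gene, Gm11626, overlaps 16.8% of its exonic bases, so that without a stated strand setting reads in that overlap cannot be told apart. Isg20, an RNA exonuclease, was highest in the PDPN+ sample, at 12.0 CPM in the CD36+ sample, 6.67 CPM in the double-negative sample and 21.5 CPM in the PDPN+ sample.

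**Figure D4:**
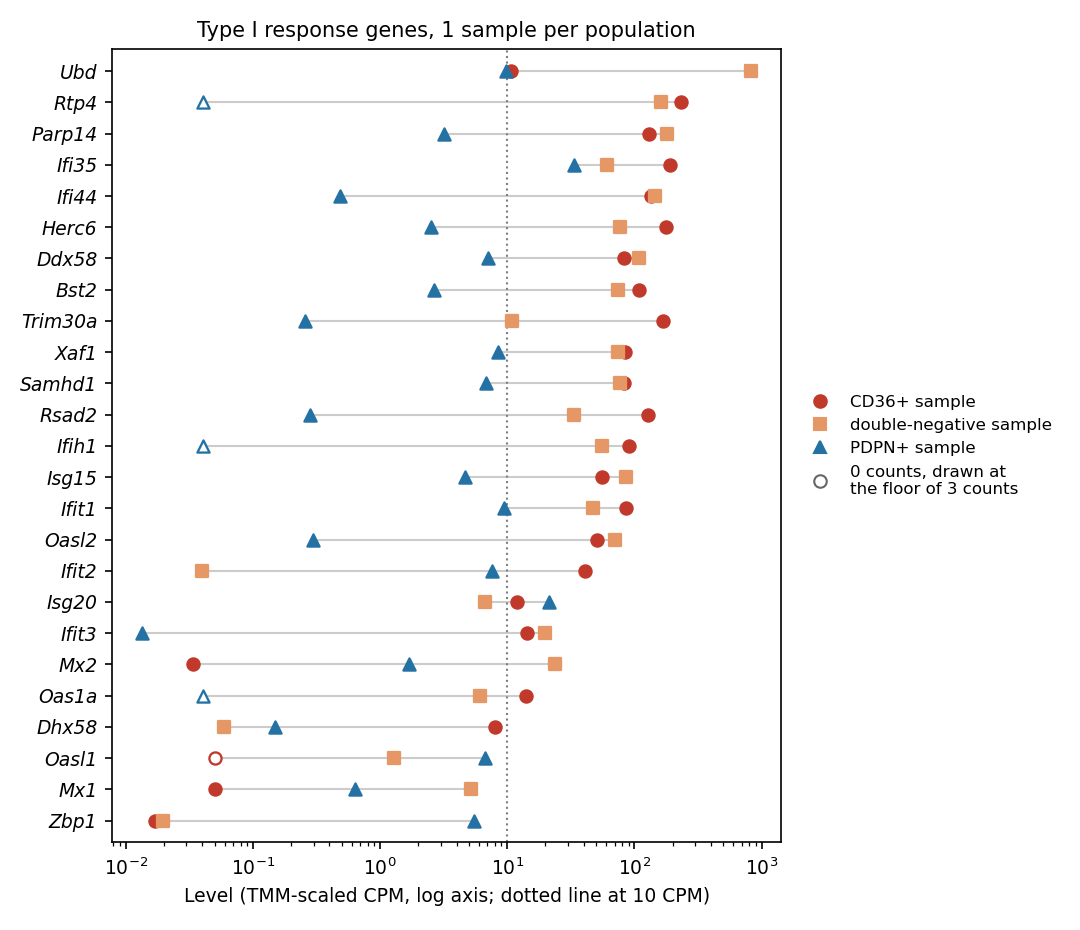
Levels of the 25 type I response members, with genes down the page and TMM-scaled CPM on a log axis, 1 point per sample, and open points for 0 counts drawn at the floor of 3 counts. Most genes have the PDPN+ sample far to the left, whereas Isg20, Oasl1 and Zbp1 have it to the right of both Cdh5-positive samples, and Ubd and Mx2 stand high in the double-negative sample alone.

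Further pathway genes were examined beside the members. Of 86 such genes, 49 reached 10 CPM in the CD36+ or the PDPN+ sample, with 27 called higher, against 15.1% of all genes, and 2 lower, against 17.6%, in the CD36+ sample (median 2.28). In the double-negative over PDPN+ comparison 24 of 49 were called higher, against 14.9%, and 5 lower, against 19.3% (median 1.94). Ifi203 and Mndal, nuclear DNA-binding proteins of the p200 family, stood at 1234 and 630.2 CPM in that order of genes in the CD36+ sample, 1161 and 542 CPM in the double-negative sample, and 29.6 and 18.8 CPM in the PDPN+ sample. Tmem173, which encodes the DNA-sensing adaptor STING, stood at 230.4 CPM in CD36+ cells, 239 CPM in double-negative cells and 20.6 CPM in PDPN+ cells, and Socs2, better known as an inhibitor of growth hormone signalling, at 556 CPM in CD36+ cells, 504 CPM in double-negative cells and 46.5 CPM in PDPN+ cells.

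Some abundant interferon-inducible genes were less far apart. Ifitm3, which blocks virus entry from endosomes, stood at 2076 CPM in the CD36+ sample, 1463 CPM in the double-negative sample and 751 CPM in the PDPN+ sample, within 4-fold. Eif2ak2, the kinase PKR, stood at 38.6 CPM in CD36+ cells, 50.3 CPM in double-negative cells and 19.1 CPM in PDPN+ cells, and Ifi27 at 109.5 CPM in CD36+ cells, 87.0 CPM in double-negative cells and 62.3 CPM in PDPN+ cells. Oas1b was the response gene called lower in both comparisons, with 4 counts in the CD36+ sample, 7 counts in the double-negative sample and 11.5 CPM in the PDPN+ sample.

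The CD36+ over double-negative comparison asks whether the Cdh5-positive samples differed by CD36. Within 2-fold were 31 of 49 members, against 56.1% of 8968 genes. Called higher in the CD36+ sample were 5 members (Ifit2, Ifnar1, Trim30a, Gbp5 and Irgm2), against 12.2% of genes, and 4 were called lower (Ifngr1, Gbp8, Ubd and Mx2), against 11.9%. These shares of members, 10.2% and 8.16%, lie near those of all genes and, like the number within 2-fold, are no result about the members as a group. The median log2 ratio was 0.11 for members and 0.11 for all genes tested, and it turned to -0.07 for members under total counts, which moved every ratio of this pair by -0.17.

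Single members stood out by size in this comparison. Ifit2 was 1029-fold higher in the CD36+ sample, with an interval of 284 to 8498 that reflects 2 counts in the double-negative sample. Mx2 was 704-fold lower, with 2 counts in the CD36+ sample. Genes with at least 10 CPM in the CD36+ and at most 3 counts in the double-negative sample made up 3.2% of those tested, and the reverse 3.36%, and each direction held 1 of the 49 members, Ifit2 and Mx2. Outside the members, Ddx60 and Epsti1 stood at 42.0 and 11.8 CPM in the double-negative sample, with 7 and 0 counts in the CD36+ sample, and Tor3a stood at 81.7 CPM in the CD36+ sample and 4.50 CPM in the double-negative sample.

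**Figure D5:**
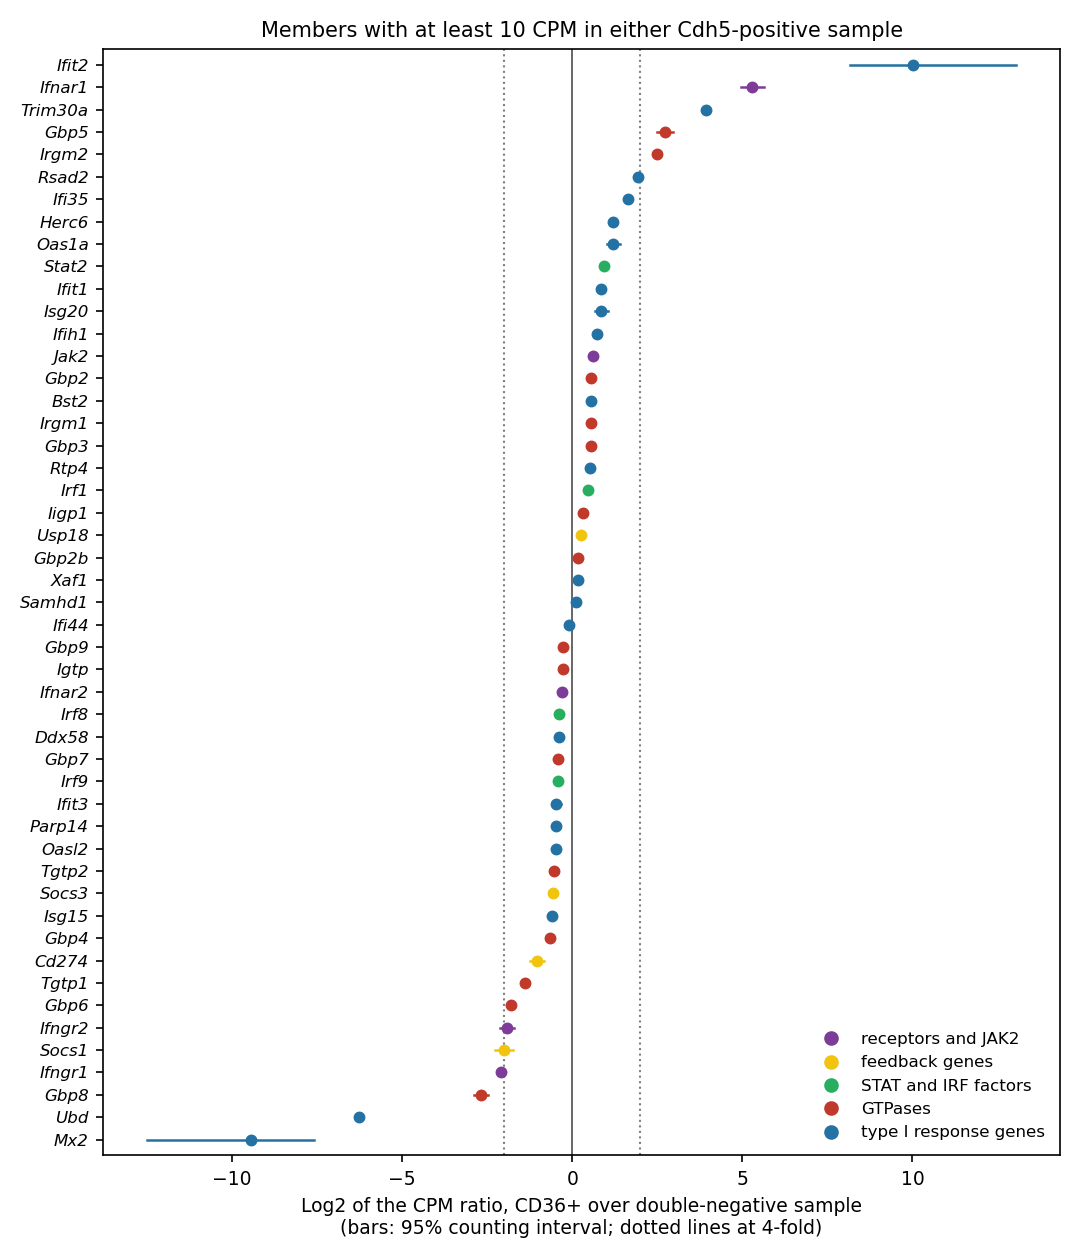
Ratios of the CD36+ over the double-negative sample for the 49 members with at least 10 CPM in either, with genes down the page and the log2 of the CPM ratio across, bars giving 95% counting intervals and colours the roles. Most members lie between the dotted lines at 4-fold, and Ifit2, Ifnar1 and Trim30a at the top and Gbp8, Ubd and Mx2 at the bottom lie outside them.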

How the data were processed

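Bulk RNA sequencing tables of 3 sorted mouse mammary populations were used, 1 library each, grouped by the labels. The authors deposited estimated counts and TPM per gene, made with Salmon 0.9.1 on mm10 per the submitters' processing notes. For the annotation release, strand setting and read filters, the sources used here give nothing. Per the labels' protocols, a low-input kit or a stranded ribosomal-depletion kit and either of 2 sequencers were used, and which served which library is not given, so library chemistry and population cannot be told apart.

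Estimated counts were rounded. Symbols and coordinates came from GENCODE M21 and matched 52566 of 52661 identifiers without version. Scaling used TMM in edgeR 4.0.16 (R 4.3.3), and log2 ratios a prior count of 2. Intervals are exact Clopper-Pearson 95% intervals from scipy 1.17.1. Ratios and intervals were checked on simulated counts. With 1 library per population nothing could be tested across replicates, and there are no p-values. Sequence sharing was counted in 31-base words of GENCODE M21 transcripts. Promoters are from RefSeq GRCm38.p6.

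The members and gene lists were chosen with earlier results of these data known. By the naming rule all 54 members are named or counted. Pathway genes are named from the 3 with the highest mean CPM per list and those at least 4-fold apart with at least 50 CPM, and not every such gene is named, some being not reported here. Irf3, Nmi, Tyk2, Ifnlr1, Eif2ak2, Ifi27, Oas1b, Epsti1, the ligand genes and the neighbouring genes were named after their values were seen, where the rule did not give them. Alternatives covered scaling, the minimum level, the prior count, the fold, TPM in place of counts and near-identical copies.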

Additional observations from a re-analysis of the deposited data

How the results depend on the processing

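Against the PDPN+ sample, 37 members were called higher in the CD36+ and 36 in the double-negative sample, and under the alternatives tried these counts lay between 31 and 39 and between 27 and 40. At 50 CPM they were 31 of 35 and 27 of 30 members tested, against 14.3% and 12.4% of all genes. At 2-fold they were 39 of 45 and 40 of 46, against 25.3% and 25.4%. Counts called lower, 1 in each of these comparisons, became 5 and 5 with no filter beyond 1 count, 4 and 5 at a minimum of 1 CPM, 0 and 0 at 50 CPM and 2 and 3 by deposited TPM, and the double-negative count became 2 at 2-fold. Within the Cdh5-positive pair, 5 higher and 4 lower became 3 and 2 of 36 at 50 CPM, against 3.56% and 3.94% of all genes. At 2-fold they became 9 and 9 of 49, against 22.9% and 21.0%. The lower count of this pair became 6 under total counts, against 13.2% of all genes. It became 5 under upper quartile scaling and with a prior count of 0.5, against 12.2% and 12.0%. At 1 CPM 7 were higher and 6 lower of 53, against 17.5% and 16.7%. With no filter beyond 1 count 7 were higher and 6 lower of 54, against 11.6% and 11.8%. Median log2 ratios over members tested, given for CD36+ over PDPN+, double-negative over PDPN+ and CD36+ over double-negative, were 4.34, 4.30 and -0.066 under total counts, 5.01, 4.81 and 0.095 under upper quartile scaling, 3.87, 3.92 and 0.013 with no filter beyond 1 count, 5.09, 5.18 and 0.14 at 50 CPM and 3.65, 4.18 and 0.049 by TPM. With relative log expression the last pair of medians was 4.51 and 0.12. With TMM over the samples of a pair, the first and the last were 4.80 and 0.14. At 1 CPM the first pair was 4.12 and 3.96, and with a prior count of 0.5 it was 4.76 and 4.54. With Tgtp1 and Tgtp2 summed, the first and the last were 4.53 and 0.14. Leaving out the 5 members that share over 50% of their 31-base words with other genes, an alternative chosen after seeing the data, gave 4.17, 4.08 and 0.17. The cause of these shifts was not tested, beyond the scaling and the sets of members tested. Of 506 values of single called members under another scaling, prior count, unit or summing, 0 changed sign. Members are called at 4-fold or more, a log2 of 2, and the largest scaling shift of a ratio was -0.40 in log2. No sign change was therefore possible under the scalings, and the 0 is no test of them. The prior count of 0.5 left the CD36+ over PDPN+ median at 4.76, against 4.75. Calls against the PDPN+ sample that ended by TPM included those of Socs3, Ddx58, Ifit1 and Ifit2. No paired analysis was possible because each population has 1 sample, and no sample could be left out without ending a comparison. Depth covers counting error only, and a count of 0 limits a level to the floor of 3 counts.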

Other observations

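The blocks of GTPase genes hold further genes that were not listed. Between Irgm1 and Tgtp2 on chromosome 11, 9930111J21Rik2 stood at 74.8 CPM in the CD36+ sample, 124 CPM in the double-negative sample and 6.21 CPM in the PDPN+ sample. Psme2b, annotated in the same interval, stood at 25.8 CPM in CD36+ cells, 22.7 CPM in double-negative cells and 2.50 CPM in PDPN+ cells. Both had the PDPN+ sample lowest, like the GTPase genes beside them. Gm5431 in the same interval was low in every sample with little gap, at 1.32 CPM in CD36+ cells, 2.04 CPM in double-negative cells and 1.28 CPM in PDPN+ cells. Gm12185, whose exons overlap those of Tgtp1, had 6 counts in the CD36+ sample, 18.6 CPM in the double-negative sample and 2 counts in the PDPN+ sample. The processed pseudogene Gm43802, inside Gbp7 on chromosome 3, had 0 counts in the CD36+ and double-negative samples and 102 counts in the PDPN+ sample.

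Counts were assigned to antisense genes of 2 members in the CD36+ sample alone. Gm11626, antisense to Ifi35, and Dhx58os, antisense to Dhx58, had 126 counts each in the CD36+ sample and 0 counts in the double-negative and PDPN+ samples. Ifi35 and Dhx58 also had their highest levels in the CD36+ sample, and with no stated strand setting reads in the overlap with each antisense gene cannot be told apart from theirs.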
